A study of Macaca fascicularis with 3 samples.

Results

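The cluster of miR-143 and miR-145 consists of 2 microRNA (miRNA) hairpins, each of which gives a mature miRNA from its 5′ arm (5p) and another from its 3′ arm (3p). The 4 mature miRNAs were taken by name from the deposited table of the kidney cortex of cynomolgus monkeys (Macaca fascicularis), where they are mfa-miR-143-5p, mfa-miR-143-3p, mfa-miR-145-5p and mfa-miR-145-3p, 4 of 432 listed miRNAs. The tissue came from 3 untreated animals aged 2 to 3 years, with 1 small RNA library per animal and no second group, so comparisons are between miRNAs and between animals. Kidney cortex is the outer layer of the kidney, which holds the glomeruli, most of the proximal tubules and the arterioles that feed them. Counts on listed miRNAs came to 4305977 for animal 1, 4707892 for animal 2 and 3957188 for animal 3. A floor of 3 counts was worth 0.697, 0.637 and 0.758 CPM, that is counts per 1000000 listed counts of the library. The library of animal 3 stood apart from the others: edgeR gave a common biological coefficient of variation, the spread between animals beyond counting error, of 0.438 for all libraries and 0.494, 0.530 and 0.259 without animals 1, 2 and 3.

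Both hairpins are cut from a shared primary transcript, and in adult tissue they are best known from vascular and visceral smooth muscle and from other mural cells such as pericytes. Their transcription there is driven by serum response factor and its partner myocardin, and they help to hold smooth muscle cells in a contractile state. KLF4 and KLF5 are known targets of miR-145, and ELK1 is a known target of miR-143. From most hairpins mainly a single arm is loaded into an Argonaute protein as the guide, while the opposite arm is degraded. In human the hairpins lie in the long noncoding transcript CARMN between the genes IL17B and CSNK1A1. In the RefSeq gene table of the macaque assembly T2T-MFA8v1.1 these genes lie on chromosome 6, with 2 long noncoding RNA genes and 0 protein-coding genes between them. The deposited tables name no genome build, so no positions are given for the hairpins.

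The first question was how much of the cortical miRNA pool the cluster makes up. The members together held 121493, 149641 and 175745 counts in animals 1, 2 and 3. In animal 1 this was 2.82% of the listed counts, with a Wilson 95% interval of 2.81 to 2.84. It was 3.18% (3.16 to 3.19) for animal 2 and 4.44% (4.42 to 4.46) for animal 3. The intervals do not overlap, and animal 3 had the highest share. The mean was 3.48% ± 0.851 (SD, n = 3), and 3.00% without animal 3. Intervals and floors cover counting error only and leave out differences between animals and between library preparations. Reads counted without molecular identifiers are not independent molecules, so the intervals can be too narrow even for that error. In a piece of bulk tissue, fewer cells of a type and less RNA per cell cannot be told apart.

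miR-145-5p, the guide arm known to act on KLF4, was the most abundant member, with 85220, 124945 and 150338 counts in animals 1, 2 and 3, or 19791, 26540 and 37991 CPM. It ranked 15, 13 and 9 among the listed miRNAs of the 3 libraries. All 3 libraries placed it among their 15 most abundant miRNAs, and its mean was 28107 CPM ± 9201 (SD, n = 3), or 23165 CPM without animal 3. miR-143-3p, the guide arm of the neighbouring hairpin, had 34745, 23441 and 24193 counts, or 8069, 4979 and 6114 CPM. Its ranks were 28, 38 and 31, and its mean was 6387 CPM ± 1563 (SD, n = 3). For miR-143-3p animal 1 was the highest and animal 2 the lowest, while for miR-145-5p animal 3 was the highest and animal 1 the lowest.

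The opposite arms were far lower. miR-145-3p had 1519, 1250 and 1035 counts, or 353, 266 and 262 CPM, with ranks of 118, 141 and 126. Its mean was 293 CPM ± 51.6 (SD, n = 3), with animal 1 above animals 2 and 3. miR-143-5p had 9, 5 and 179 counts, or 2.09, 1.06 and 45.2 CPM. Animals 1 and 2 lay just above the floor, and animal 3 lay far above both. The exact Poisson 95% intervals of these counts were 4.12 to 17.1, 1.62 to 11.7 and 154 to 207. miR-143-5p ranked 395 and 423 of 432 in animals 1 and 2 but 193 in animal 3. Its mean of 16.1 CPM ± 25.2 (SD, n = 3) describes none of the libraries, and without animal 3 it was 1.58 CPM.

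**Figure D1:**
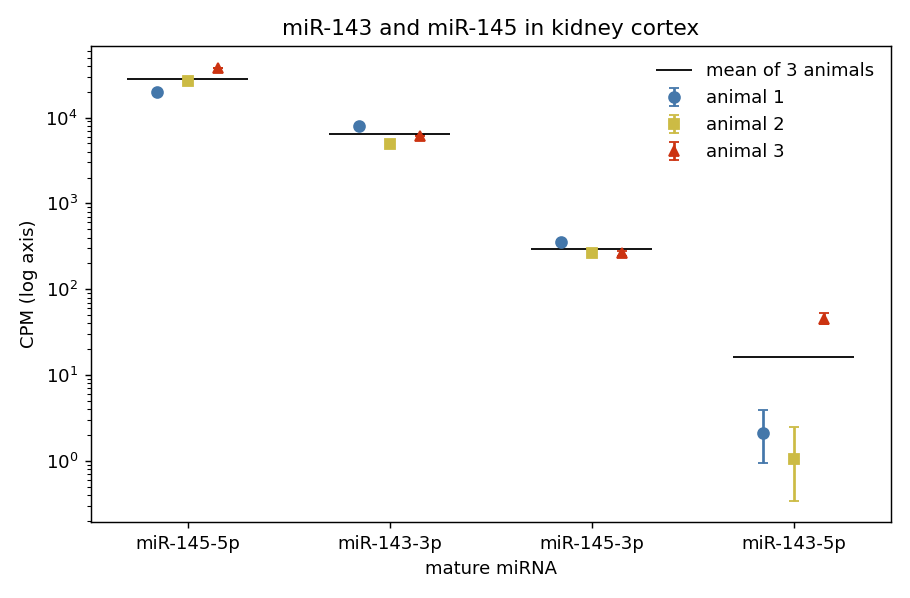
Level of each mature miRNA of the cluster in CPM on a log axis, by animal, with exact Poisson 95% intervals as bars (smaller than the symbols at high counts) and the mean of 3 animals as a line. miR-145-5p lies between 19791 and 37991 CPM, and miR-143-5p is at 2.09 and 1.06 CPM in animals 1 and 2 and at 45.2 CPM in animal 3.

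The order of the members was the same in all 3 animals, miR-145-5p above miR-143-3p, miR-145-3p and then miR-143-5p. Mature miRNAs are of nearly equal length, so these levels were compared without correction for length. miR-145-5p exceeded miR-143-3p 2.45-fold, 5.33-fold and 6.21-fold in animals 1, 2 and 3, a mean log2 difference of 2.11 ± 0.72 (SD). miR-143-3p exceeded miR-145-3p 22.9-fold, 18.8-fold and 23.4-fold, a mean log2 difference of 4.43 ± 0.18 (SD). miR-145-3p exceeded miR-143-5p 169-fold and 250.0-fold in animals 1 and 2 but 5.78-fold in animal 3. Each of the 6 pairs kept its order in 3 of 3 animals. An exact permutation test that flips signs over animals (two-sided) gave p = 0.25 for each pair, also 0.25 after Benjamini-Hochberg adjustment over the 6 pairs, and it is the smallest that 3 animals allow.

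The direct neighbours of each member in mean CPM among all listed miRNAs are close in mean by construction, and are given to place the members. miR-145-5p, at rank 13, stood between miR-29c-3p with 28572 CPM ± 4190 and miR-125b-5p with 27533 CPM ± 9260 (SD, n = 3 each). miR-29c-3p lay above it in 2 of 3 animals, and so did miR-125b-5p. miR-143-3p, at rank 32, stood between miR-100-5p with 6763 CPM ± 2060 and miR-27a-3p with 6371 CPM ± 892. It lay below miR-100-5p in 2 of 3 animals and above miR-27a-3p in 2 of 3. miR-145-3p, at rank 131, had miR-532-5p (296 CPM ± 68.4) and miR-28-3p (282 CPM ± 73.3) as neighbours, and its order against each changed between animals. For miR-143-5p, at rank 277 by a mean that animal 3 decides, the neighbours were miR-130b-5p (16.5 CPM ± 8.27) and miR-329-3p (15.6 CPM ± 2.22), and each lay above it in 2 of 3 animals.

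Since the hairpins are made from a shared transcript, the ratio between them was taken within each library, where scaling between libraries plays no part. The summed arms of the miR-145 hairpin held 86739, 126195 and 151373 counts in animals 1, 2 and 3, and those of the miR-143 hairpin 34754, 23446 and 24372. The miR-145 hairpin thus had 2.50, 5.38 and 6.21 times the counts of the miR-143 hairpin. Animal 1 had the lowest ratio, and animals 2 and 3 lay closer together. Of the cluster's counts, miR-145 made 71.4% (Wilson 95% interval 71.1 to 71.6) for animal 1, 84.3% (84.1 to 84.5) for animal 2 and 86.1% (86.0 to 86.3) for animal 3. The ratio was above 1 in 3 of 3 animals with a mean log2 of 2.13 ± 0.71 (SD), and the exact sign-flip permutation p was 0.25. Whether the ratio reflects the amounts in the tissue or how well each sequence enters a library was not tested.

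**Figure D2:**
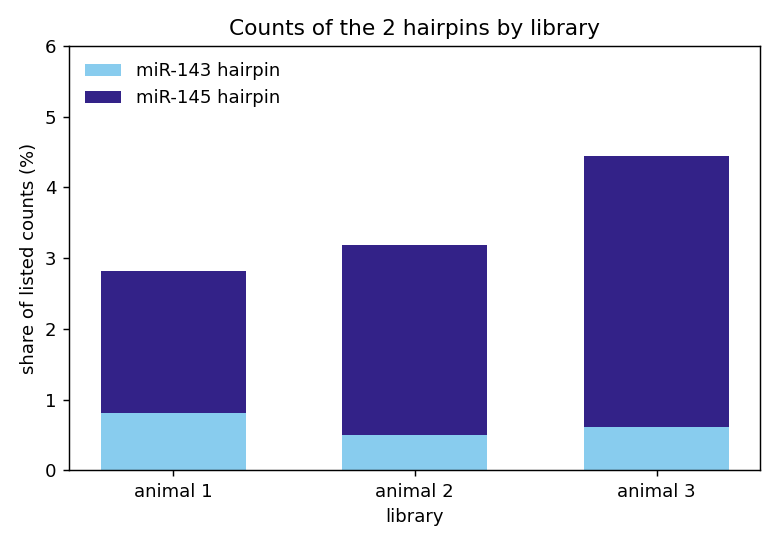
Share of the listed counts, in percent, taken by the summed arms of the miR-143 hairpin (light) and of the miR-145 hairpin (dark), stacked for each library. The miR-145 hairpin takes 2.01%, 2.68% and 3.83% over animals 1, 2 and 3, while the miR-143 hairpin stays between 0.498% and 0.807%.

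The hairpins used opposite arms. The 3p arm made 99.97%, 99.98% and 99.27% of the miR-143 hairpin over animals 1, 2 and 3. The 5p arm made 98.25%, 99.01% and 99.32% of the miR-145 hairpin in the same animals. Each thus had the same dominant arm in all 3 libraries, as did 92.6% of the 122 hairpins that had names for both arms and, summed over the arms, 10 or more counts per library on average. The 5p arm was dominant throughout in 64 of these hairpins and the 3p arm in 49. The minor arm took a mean of 0.261% in the miR-143 hairpin and 1.14% in the miR-145 hairpin, against a median of 5.15% over the 122 hairpins. A smaller mean minor share was found in 19 hairpins than in miR-143 and in 31 than in miR-145.

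The minor arm of the miR-143 hairpin differed most in animal 3. miR-143-5p made 0.0259% of its hairpin (Wilson 95% interval 0.0136 to 0.0492) for animal 1, 0.0213% (0.00911 to 0.0499) for animal 2 and 0.734% (0.635 to 0.850) for animal 3. The intervals of animals 1 and 2 overlap, and that of animal 3 lies above both. At the summed share of animals 1 and 2, 14 of 58200 counts, the hairpin of animal 3 would hold 5.86 counts of miR-143-5p, against 179 observed. In the miR-145 hairpin the minor arm miR-145-3p made 1.75% (1.67 to 1.84), 0.991% (0.937 to 1.05) and 0.684% (0.643 to 0.727) in animals 1, 2 and 3. These 3 intervals do not overlap, and animal 1 had the largest share.

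A chi-square test of arm against library, with Benjamini-Hochberg adjustment over the 122 hairpins, called both hairpins of the cluster, with an adjusted p of 2.27e-80 for miR-143 and 1.05e-132 for miR-145. The same test called 67.2% of all hairpins, so a call alone sets neither apart. Without animal 3 the adjusted p of the miR-143 hairpin was 0.778, so its call rests on that library, while that of miR-145 was 1.50e-50. By size, the arm ratio (with 0.5 added to each count) spanned 31.6-fold between libraries for miR-143 and 2.59-fold for miR-145. The median span was 2.30-fold, and 54.9% of the hairpins spanned more than 2-fold. The hairpins with a span at least as large as miR-143's numbered 4, itself included. The others, named after their values were seen, were miR-324, miR-127 and miR-20b. In each of these an arm had 8 or fewer counts in animal 3. miR-143-5p had its highest count there, but 9 and 5 counts in animals 1 and 2, so its span also rests on low counts.

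**Figure D3:**
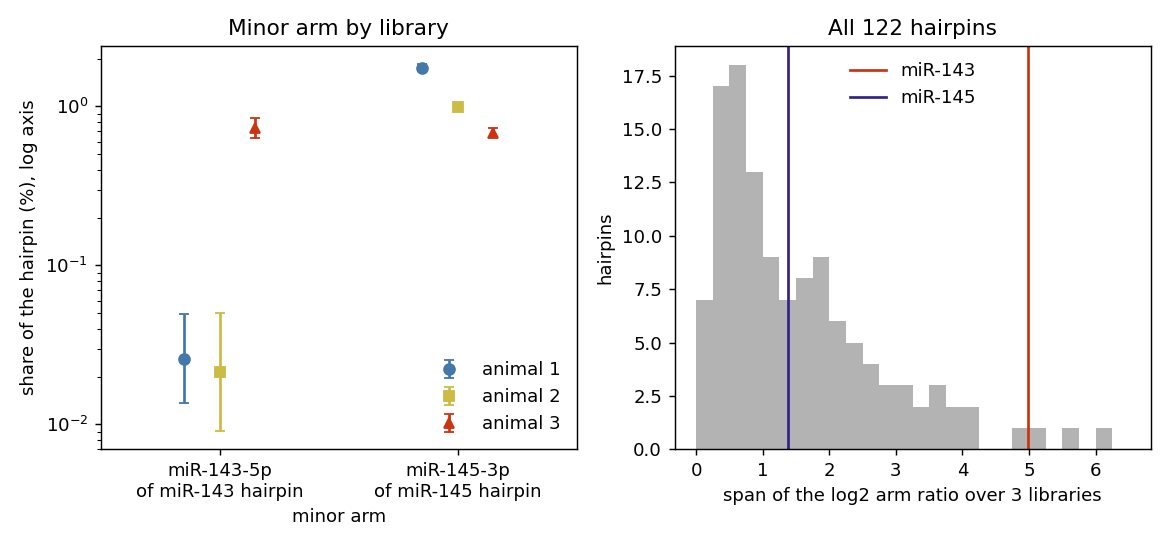
Left, share of its hairpin taken by the minor arm, miR-143-5p or miR-145-3p, in percent on a log axis, by animal, with Wilson 95% confidence intervals. Right, number of hairpins by the span of their log2 arm ratio over the 3 libraries, for 122 hairpins, with lines at miR-143 (4.98) and miR-145 (1.37). miR-143-5p stands at 0.734% in animal 3 against 0.0259% and 0.0213% in animals 1 and 2.

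To compare animals, counts were scaled by the trimmed mean of M values (TMM), which sets most miRNAs level between libraries. On this scale miR-145-5p stood at 19578, 25230 and 40398 CPM in animals 1, 2 and 3, a span of 2.06-fold from lowest to highest. miR-143-3p stood at 7982, 4733 and 6501 CPM, a span of 1.69-fold, and miR-145-3p at 349, 252 and 278 CPM, a span of 1.38-fold. miR-143-5p stood at 2.07, 1.01 and 48.1 CPM. The median span over the 391 miRNAs averaging 10 or more counts was 1.69-fold. miR-143-3p was thus at the median, miR-145-3p below it and the other members above.

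The minimum mean count of 10 was passed by miR-145-5p, miR-143-3p and miR-145-3p in any pair of libraries, but by miR-143-5p only through animal 3, since it averaged 7 counts in animals 1 and 2. Its call and its span below are therefore given as a description. A chi-square test of homogeneity between the libraries, adjusted by Benjamini-Hochberg over 391 miRNAs, called the 3 other members, where it called 80.6% of all miRNAs tested. The adjusted p was 3.59e-17 for miR-145-3p and at most 8.89e-300 for miR-143-3p and miR-145-5p, and it was 1.03e-84 for miR-143-5p. This test sets the spread between animals against counting error, and at these depths small differences pass. By size, 1 of these 3 members, miR-145-5p, spanned more than 2-fold, where 39.9% of all miRNAs did. With miR-143-5p counted, it was 2 of 4. With library totals in place of TMM, miR-145-5p spanned 1.92-fold. Without animal 3 the span of miR-145-5p was 1.29-fold and without animal 1 it was 1.60-fold.

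miR-143-5p was 23.3-fold higher in animal 3 than in animal 1 (exact binomial 95% interval 12.0 to 51.7, counting error only) and 47.6-fold higher than in animal 2 (20.0 to 149). Between animals 1 and 2 the fold was 2.05 (0.616 to 7.78), an interval that includes 1. The SD of log2(TMM-scaled CPM + 1) was 2.50 for miR-143-5p, against 0.53 for miR-145-5p, 0.38 for miR-143-3p and 0.24 for miR-145-3p. The median over the 391 miRNAs was 0.38. The biological coefficient of variation that edgeR gave was 1.08 for miR-143-5p, 0.325 for miR-143-3p, 0.356 for miR-145-5p and 0.375 for miR-145-3p, against a common value of 0.438. edgeR fits this value per miRNA with weight from the other miRNAs, and its order is not that of the SDs. miR-145-3p had the lowest SD of the members but not the lowest coefficient.

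Because the library of animal 3 stood apart, each member's log2 deviation in animal 3 from the mean of animals 1 and 2 was placed among the 391 miRNAs. miR-143-5p lay at 4.31. A deviation of +2 or above was found in 0.767% of the miRNAs, 3 in number, and one of -2 or below in 6.65%, 26 in number. The other 2 high miRNAs, named after their values were seen, were miR-507 with 0, 0 and 57 counts and miR-508-3p with 0, 10 and 23 counts. All 3 averaged under 10 counts in animals 1 and 2 and were tested only through animal 3, so their place at the top is not a finding. By size without sign, miR-324-5p at -5.86 and miR-502-3p at -4.44 deviated more than miR-143-5p. miR-145-5p lay at 0.86, with 32 miRNAs at or above this value, itself included. miR-143-3p lay at 0.08, or at -0.05 with library totals, and miR-145-3p lay at -0.09. The animals' labels give no property by which they differ and no batch, so animal and library cannot be told apart.

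**Figure D4:**
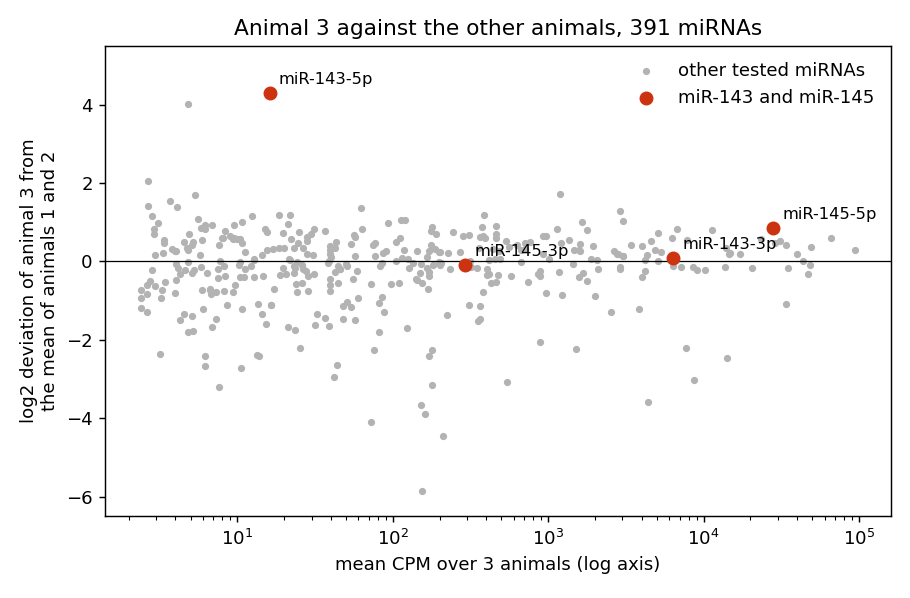
Log2 deviation of animal 3 from the mean of animals 1 and 2, on TMM-scaled CPM + 1, against the mean CPM on a log axis, for 391 miRNAs (grey) with the members of the cluster in red. miR-143-5p, tested only through its count in animal 3, lies at 4.31, miR-145-5p at 0.86 and the other members close to 0, while 26 miRNAs lie at -2 or below.

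How alike the members varied was measured by the Euclidean distance between their log2 TMM-scaled CPM, each centred on its mean over the 3 libraries. With 3 libraries such distances describe the values and carry no test, and many miRNAs lie close to any given member. miR-143-3p and miR-145-3p, from different hairpins, lay at 0.25, where the median distance of miR-143-3p to 258 other miRNAs averaging 100 or more counts was 0.72. Of these, 17 lay closer to miR-143-3p than miR-145-3p did. The guide arms miR-143-3p and miR-145-5p lay at 1.02, with 177 of the 258 closer. The arms of the miR-145 hairpin lay at 0.98 from each other, with 158 of 258 closer to miR-145-5p. miR-143-5p lay between 3.57 and 4.22 from the other members.

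Among miRNAs outside the cluster, the 3 nearest to miR-145-5p were miR-425, miR-200a-5p and miR-484, at distances of 0.024, 0.033 and 0.072. Nearest miRNAs were picked for a like pattern over these libraries, so a like order of the animals is by construction. miR-425 stood at 258, 338 and 544 TMM-scaled CPM and, like miR-145-5p, was lowest in animal 1 and highest in animal 3. The 3 nearest to miR-143-3p were miR-124a-3p, miR-363-3p and miR-337-3p, at 0.095, 0.10 and 0.11, all highest in animal 1 and lowest in animal 2. The 3 nearest to miR-145-3p were miR-98, miR-379-5p and let-7f-5p, at 0.046, 0.050 and 0.066. miR-143-5p had too few counts in 2 libraries for this comparison.

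Other miRNAs known to act in smooth muscle and mural cells were then set beside the cluster. Of 12 names on this list 11 were found, as 19 mature miRNAs, with miR-490 not among the listed names. Its names miR-1, miR-133a and miR-133b also stand on the striated muscle list used below. The chi-square test called 16 of the 18 that averaged 10 or more counts, and 6 of 18 spanned more than 2-fold, beside 80.6% and 39.9% of all miRNAs. Their median span was 1.56-fold. The most abundant was miR-26a-5p with 53477, 49156 and 37549 CPM, followed by miR-21-5p, known from injury and fibrosis, with 14796, 14121 and 15051 CPM. miR-145-5p lay below miR-26a-5p in animals 1 and 2 and slightly above it in animal 3. The list as a whole took 8.58%, 7.82% and 6.85% of the counts in animals 1, 2 and 3, lowest in animal 3, where the cluster was highest. Most of the list's counts were from miR-26a-5p, itself lowest in animal 3, so this order is largely that of 1 miRNA. The order of the cluster's share is likewise largely that of miR-145-5p, since miR-143-3p and miR-145-3p were highest in animal 1. On the TMM scale some miRNAs of the list were highest in animal 3 and others were lowest there. miR-24-3p, with 7593, 6198 and 9978 TMM-scaled CPM, was among the former. miR-221-3p, which favours the proliferating state of smooth muscle cells, was among the latter. It had 2131, 1885 and 428 TMM-scaled CPM and the largest span of the list, while its opposite arm miR-221-5p had 97.2, 72.5 and 102. The miRNAs of this list are also expressed in other cells of the kidney.

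The cluster was last compared with miRNAs known from neighbouring cell types. The stromal list held miR-199a and miR-214, known from fibroblasts and other mesenchymal cells, while miR-199b was not among the listed names. This list took 1.08%, 1.22% and 1.01% of the counts in animals 1, 2 and 3. The cluster exceeded it 2.62-fold, 2.61-fold and 4.39-fold, higher in 3 of 3 animals. Its 4 miRNAs all spanned less than 2-fold, miR-199a-3p 1.16-fold and miR-214-3p 1.42-fold, and their sum spanned 1.09-fold on the TMM scale, where that of the cluster spanned 1.69-fold. miR-126, known from endothelial cells, took 4.98%, 3.99% and 4.08%. The cluster lay below it in animals 1 and 2 and above it in animal 3, at 0.566, 0.796 and 1.09 times its share. Most of the cluster's counts were from miR-145-5p, which was highest in animal 3, while miR-143-3p and miR-145-3p were not. The striated muscle list, made of miR-133a, miR-133b, miR-206 and miR-1, took 0.0562%, 0.0399% and 0.0363%, and miR-208a and miR-208b were not among the listed names. Most of its counts were from miR-1-3p. It left out miR-133c-3p and miR-133d-3p, which averaged 29.6 and 42.9 CPM. The cluster exceeded this list 50.2-fold, 79.6-fold and 122-fold. The exact sign-flip permutation p was 0.25 against the stromal and striated muscle lists and 0.5 against miR-126, or 0.375, 0.375 and 0.5 after Benjamini-Hochberg adjustment over the 3 comparisons.

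Of the remaining lists, 1 was highest in animal 3 as the cluster was, the erythroid list of miR-451, miR-144 and miR-486. Most of its counts were from miR-451, with 4369, 3900 and 5386 CPM in animals 1, 2 and 3. miR-144, with 633, 424 and 326 CPM, was lowest in animal 3. On the TMM scale 2 of the 4 miRNAs of the erythroid list were highest in animal 3 and 1 was lowest there. The renal tubule list took 5.71%, 6.20% and 5.31%, the epithelial list 2.09%, 2.07% and 1.63%, the leucocyte list 0.162%, 0.173% and 0.152%, and the erythroid list 0.502%, 0.437% and 0.576%. Of the epithelial names, miR-200b and miR-141 were not among those listed. The part of a different mix of cells in the pieces of cortex was not tested. The known origin of the cluster in smooth muscle was not checked here, because the tables hold miRNAs of whole tissue and no smooth muscle messenger RNA.

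**Figure D5:**
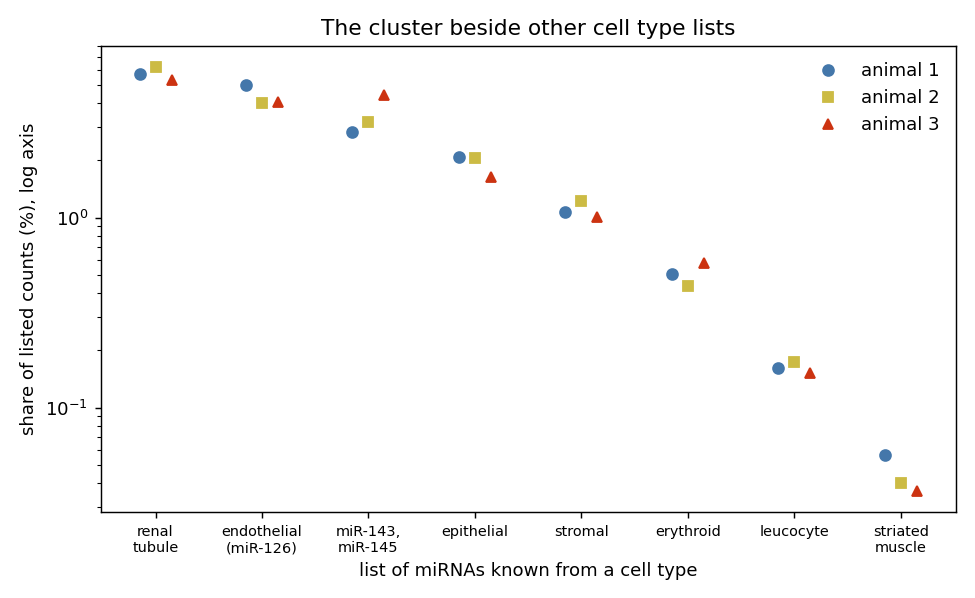
Share of the listed counts, in percent on a log axis, taken by the cluster of miR-143 and miR-145 and by lists of miRNAs known from other cell types, with 1 point per animal. The cluster lies at 2.82%, 3.18% and 4.44%, between miR-126 and the epithelial list in animals 1 and 2 and above miR-126 in animal 3.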

How the data were processed

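Small RNA from the kidney cortex of 3 animals was sequenced, with 25 to 30 mg of tissue, 5 µg of total RNA and 12 ng of enriched small RNA used per library, per the labels' protocols. Raw counts were deposited by the authors, who mapped reads to M. fascicularis miRNAs with 0 mismatches and kept miRNAs with a minimum of 15 reads, per the file headers. The smallest sum over the libraries was 15. The aligner and miRNA release are not given in the sources used here. A perfect match leaves out reads with an error or an added base, and the counts assigned to listed miRNAs are not the full depth. The second table holds a signal normalized by the authors with edgeR, per the file headers, and equals the counts times 0.989, 0.951 and 1.06 in animals 1, 2 and 3. These multipliers are close to the inverse of the TMM factors, so this table carries no scaling by library total. It was used only as an alternative.

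TMM factors (1.011, 1.052 and 0.940) and dispersions came from edgeR 4.0.16 in R 4.3.3, and tests were run with scipy 1.17.1. No contrast between groups exists, so each miRNA averaging 10 or more counts (391 of 432) was tested between libraries by chi-square against the TMM effective sizes, and each of 122 hairpins by arm and library, with Benjamini-Hochberg adjustment and a threshold of 0.05. p-values of the first test were floored at 1e-300 before adjustment. Of miR-199a and miR-199a-5p, whose counts are identical, 1 name was kept in list sums. Named beside the members were the 3 miRNAs nearest in pattern to each member with a mean count of at least 100, the direct neighbours in mean CPM, and list members averaging 1 CPM or more. The members, lists and tests were chosen with earlier results of these data known. The comparison with other cell types' lists within animals and the intervals on the folds of miR-143-5p were added after the data were examined. Alternatives were DESeq2 1.42.0 size factors, library totals, other count minimums, a pseudocount of 0.5 in place of 1, subsampling to the smallest library and leaving out each animal.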

Additional observations from a re-analysis of the deposited data

How the results depend on the processing

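No paired comparison between groups of samples was possible because there is only 1 group. The sign-flip tests paired miRNAs within animals. Of 91 recalculated values of the main results, 81 kept their side of the threshold or stayed within the spread between animals (within 1.5 times for counts and SDs) and 10 moved. Many of the 81 could not have moved. A mean with an animal left out always stays within the SD over all animals. An order shared by all animals cannot change when an animal is left out, and an SD does not depend on the count minimum. The tally is therefore no measure of robustness. The number of members spanning more than 2-fold, 2 of 4, was 1 with library totals, 1 with the authors' normalized table and 1 of 3 at a mean count of at least 100, which leaves out miR-143-5p. It ranged from 0 to 2 when an animal was left out, with 1 without animal 1 and 0 of 3 tested without animal 3, where miR-143-5p fell under the minimum count. The span of miR-145-5p was 1.90-fold in the authors' table, which is not scaled by library total. Of the hairpins of the cluster, from 1 to 2 had an arm share called different between libraries when an animal was left out, and 1 without animal 3. The SD of log2 values when an animal was left out ranged from 0.26 to 0.79 for miR-145-5p, the lowest without animal 3. It ranged from 0.16 to 0.53 for miR-143-3p, the lowest without animal 2, and from 0.10 to 0.33 for miR-145-3p, the lowest without animal 1. The cluster's share was 6.80% when the 10 most abundant other miRNAs were left out of the total, which raises any share by construction. The mean 5p share of the miR-143 hairpin, 0.261%, was 0.0236% without animal 3. Library totals turned the deviation of miR-143-3p in animal 3 from 0.08 to -0.052, and the scaling moved animals 2 and 3 apart by 0.16 on the log2 scale. With 9 and 5 counts of miR-143-5p in animals 1 and 2, depth limits their comparison, and the 95% interval of the fold, 0.616 to 7.78, includes 1.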
